A study of Homo sapiens with 4 samples.

Results

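Dense clusters of open regions in LNCaP cells were defined as fixed 50 kb bins of chromosomes 1 to 22 (hg19) that held 12 or more open regions in the vehicle condition. Each region was placed by its summit, the position where its signal was highest. There were 403 such bins of 48278 bins with at least 1 vehicle region (0.835%), and they spanned 20.15 Mb. Their members were the 5414 vehicle regions narrower than 1000 bp, of 185728 vehicle regions on these chromosomes (2.92%), and the 4546 GSK2879552 regions in the same bins, of 157286 (2.89%). The bins were chosen on the vehicle list, so the number of vehicle regions in them is a description of the choice and not a finding. A further 93 vehicle regions of 1000 bp or more lay in 81 of the bins. They counted towards the 12 but were not members, so 35 bins held fewer than 12 members. The widest member measured 993 bp and the narrowest region left out 1000 bp.

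LNCaP is a human prostate cancer line that responds to androgen. Open chromatin was mapped in it by ATAC-seq, in which the Tn5 transposase cuts accessible DNA and leaves sequencing adapters at the cut. Both groups were LNCaP cells, and the labels differ between them only in the agent: vehicle, or GSK2879552, an inhibitor of LSD1 (KDM1A), an enzyme that removes methyl groups from histone H3. The protocol text, printed alike for all 4 samples, gives 50 µM GSK2879552 for 4 hours in RPMI-1640 with 5% CSS, and 10% FBS for maintenance. Each condition had 2 sequencing lanes of technical replicates and 1 deposited list of open regions (peaks) for both. The comparison therefore set 1 library against 1 library, with no replicate and no test between conditions, and every interval below is an exact 95% interval that covers counting error only. No gene positions or sequence of the hg19 build were used here, so bins are named by their 1-based coordinates.

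Open regions are short stretches where nucleosomes are displaced, mostly at promoters and enhancers. They are not spread evenly along chromosomes. Gene-rich segments hold many promoters close together, and strong enhancers are often found in clusters around genes that define a cell type. LSD1 acts at such enhancers and promoters, and in prostate cells it works together with the androgen receptor. The DNA next to centromeres is different: it is rich in repeats and in segments duplicated elsewhere, and the centromeres themselves are gaps in hg19 where no peak can be listed.

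The dense bins held fewer peaks with GSK2879552 than with vehicle, by about as much as all bins together. With peaks of every width counted in both lists, the 403 bins held 5507 vehicle peaks and 4546 GSK2879552 peaks, a ratio of 0.826 (0.794 to 0.859). The ratio was 0.833 over all 48278 bins with a vehicle peak, and 0.847 over all peaks of these chromosomes. It varied with the vehicle number: 0.918 in bins with 1 to 3 vehicle peaks, 0.805 with 4 to 7 and 0.787 (0.774 to 0.801) with 8 to 11. These classes are sorted by the vehicle number, which is also the divisor of the ratio, so this variation is not a finding. The number per dense bin ran from 12 to 38 with a median of 13 for vehicle. For GSK2879552 it ran from 2 to 41 with a median of 11. GSK2879552 peaks were fewer in 321 bins (79.7%, 75.4 to 83.5), equal in 27 and more numerous in 55. Over all bins with a vehicle peak the share with fewer was 53.3%, but such bins mostly held few peaks, where ties are common. Among bins with 8 to 11 vehicle peaks it was 76.7%. The GSK2879552 number was lower by 1.5-fold or more in 92 dense bins (22.8%) against 38.2% of all bins, and higher by as much in 0 dense bins against 11.8%. All bins include those with few peaks, where 1 peak more or less passes such a fold. Among the 3315 bins with 8 to 11 vehicle peaks, 34.9% were lower by as much and 21 bins were higher.

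The direction of the difference in number depends on which list picks the bins. Bins that held 12 or more GSK2879552 peaks numbered 250. In these, 3536 GSK2879552 peaks stood against 3210 vehicle peaks, a ratio of 1.10 (1.05 to 1.16), and vehicle peaks were the fewer in 158 bins (63.2%). The bins picked by both lists numbered 147, which is 36.5% of those picked by vehicle and 58.8% of those picked by GSK2879552. At the threshold, the 298 bins with 11 vehicle peaks had a median of 9 GSK2879552 peaks and a ratio of 0.807. The 168 bins with 12 had a median of 10 and a ratio of 0.805.

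**Figure D1:**
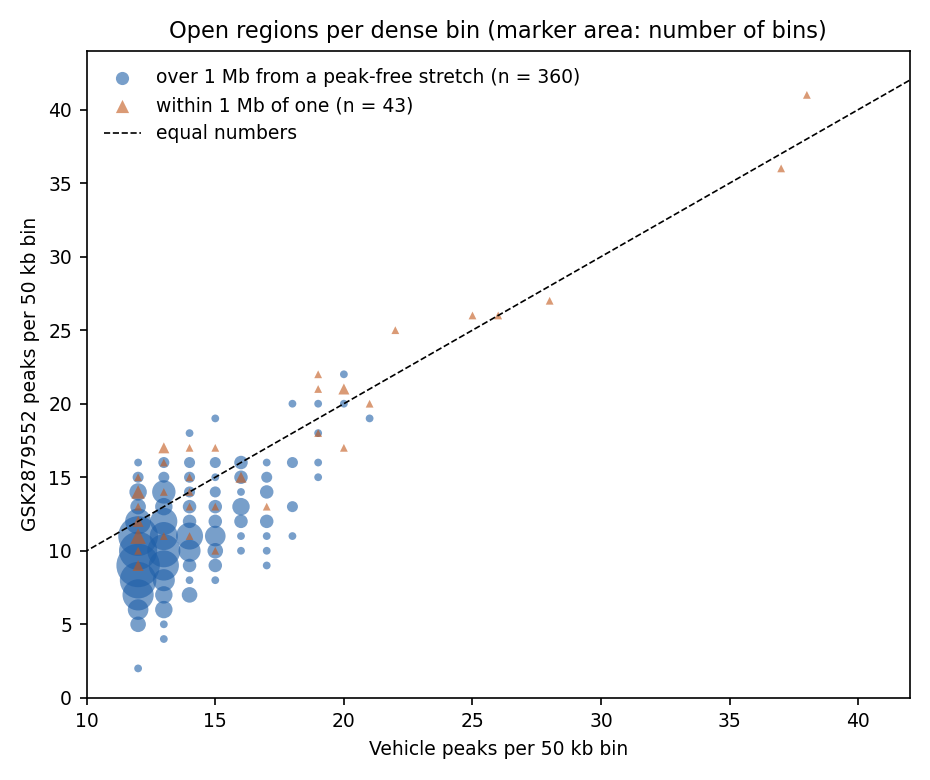
Number of vehicle peaks (horizontal axis) and GSK2879552 peaks (vertical axis) in each of the 403 dense 50 kb bins. The marker area is proportional to the number of bins at that place, triangles mark the 43 bins within 1 Mb of a stretch of at least 1 Mb with no peak, and the dashed line marks equal numbers. Most bins with 12 to 19 vehicle peaks lie below the line, and the bins with the most peaks, up to 38 and 41, lie along it.

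The very densest bins held like numbers of peaks in both lists. Among the 315 bins with 12 to 14 vehicle peaks the ratio of GSK2879552 to vehicle peaks was 0.810 (0.773 to 0.849), and among the 75 bins with 15 to 19 it was 0.827 (0.760 to 0.900). The 13 bins with 20 or more held 318 vehicle and 321 GSK2879552 peaks, a ratio of 1.01 (0.862 to 1.18), with fewer GSK2879552 peaks in 5 of the 13. Of these 13 bins, 10 lay within 1 Mb of the edge of a stretch of at least 1 Mb with no peak in either list. There were 24 such stretches, 5 from position 1 of chromosomes 13, 14, 15, 21 and 22 and the rest inside chromosome 21 and the other chromosomes. This split by place was chosen after the values were seen. Of all dense bins, 43 (10.7%) were that near to a stretch, against 1.41% of the other bins with a vehicle peak.

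Over all dense bins near the peak-free stretches, the number and the total length of peaks were about equal in both lists. Whether the peaks listed there mark open chromatin was not tested, since neither reads nor hg19 sequence were used. The 43 bins held 711 vehicle and 715 GSK2879552 peaks, a ratio of 1.01 (0.905 to 1.12), with fewer GSK2879552 peaks in 20. Peaks covered 3397 bp per bin with vehicle and 3485 bp with GSK2879552. The 360 bins farther away held 4796 and 3831 peaks, a ratio of 0.799 (0.765 to 0.834), with fewer GSK2879552 peaks in 301 (83.6%). There the covered length was 3733 bp per bin with vehicle and 2741 bp with GSK2879552. By vehicle number, the split in peak numbers had separate intervals only in the class with the fewest peaks. These intervals take the counts of both lists as independent, although most peaks were shared. Among bins with 12 to 14 vehicle peaks, the ratio was 1.03 (0.873 to 1.21) in the 24 near bins and 0.792 (0.755 to 0.832) in the 291 farther ones. Among bins with 15 to 19 it was 0.954 (0.754 to 1.21) in 9 near and 0.809 (0.739 to 0.886) in 66 farther bins, with overlapping intervals. Among bins with 20 or more it was 1.01 in 10 near bins, and the 3 farther bins held 61 peaks in either list. Bins that were not dense showed it too, with a ratio of 1.03 (0.977 to 1.08) in the 674 near ones and 0.831 (0.825 to 0.836) in the 47201 farther ones.

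The bin with the most peaks was chr10:42350001-42400000, 0.02 Mb from a stretch, with 38 vehicle and 41 GSK2879552 peaks. It was followed by chr4:49100001-49150000 with 37 vehicle and 36 GSK2879552 peaks. The third, chr16:46400001-46450000, held 28 and 27. All 3 sit beside a peak-free stretch in the inside of their chromosome. Next came chr4:49300001-49350000 with 26 and 26, and chr2:92300001-92350000 with 25 and 26. The bin chr9:66450001-66500000 held 22 and 25, and chr2:89850001-89900000 held 21 and 20. The last 3 of the 10 held 20 vehicle peaks each: chr10:42500001-42550000 with 21 GSK2879552 peaks, chr11:51550001-51600000 with 17 and chr9:68400001-68450000 with 22. Of these 10 bins, chr9:68400001-68450000, at 2.92 Mb, lay more than 1 Mb from a stretch. The naming rule passed over chromosome 8, whose bins were counted throughout. With it, chr8:86750001-86800000, with 21 vehicle and 19 GSK2879552 peaks, would be among the 10, at 39.9 Mb from a stretch. It is named here after its values were seen.

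The strength of a peak was read as the number of sequenced tags at its summit, recovered from the deposited fold enrichment and −log10 p, together with the background, the number of tags that the peak caller expected there. In chr10:42350001-42400000 the vehicle summits had 53 to 157 tags with a median of 88.5, and the GSK2879552 summits 45 to 162 with a median of 93. The background had a median of 38.4 tags for vehicle and 40.2 for GSK2879552. Its strongest member, chr10:42384930-42385333 (404 bp), had 157 vehicle tags (133 to 184) on a background of 44.9, and 159 GSK2879552 tags on 49.7. The strongest member of chr4:49100001-49150000, chr4:49110268-49110563, had 100 and 116 tags on 33.5 and 39.2. In chr16:46400001-46450000 the strongest, chr16:46403649-46403800, had 116 and 129 tags on 67.8 and 75.7, so its vehicle fold was only 1.70. The strongest members of the 10 bins had 45 to 157 tags with vehicle and 59 to 159 with GSK2879552. Each of them overlapped exactly 1 GSK2879552 peak. The tags in this paragraph are not scaled for depth. After the scaling described below, the ratio of tags summed over the 34 paired peaks of chr10:42350001-42400000 was 0.899 (0.856 to 0.943).

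**Figure D2:**
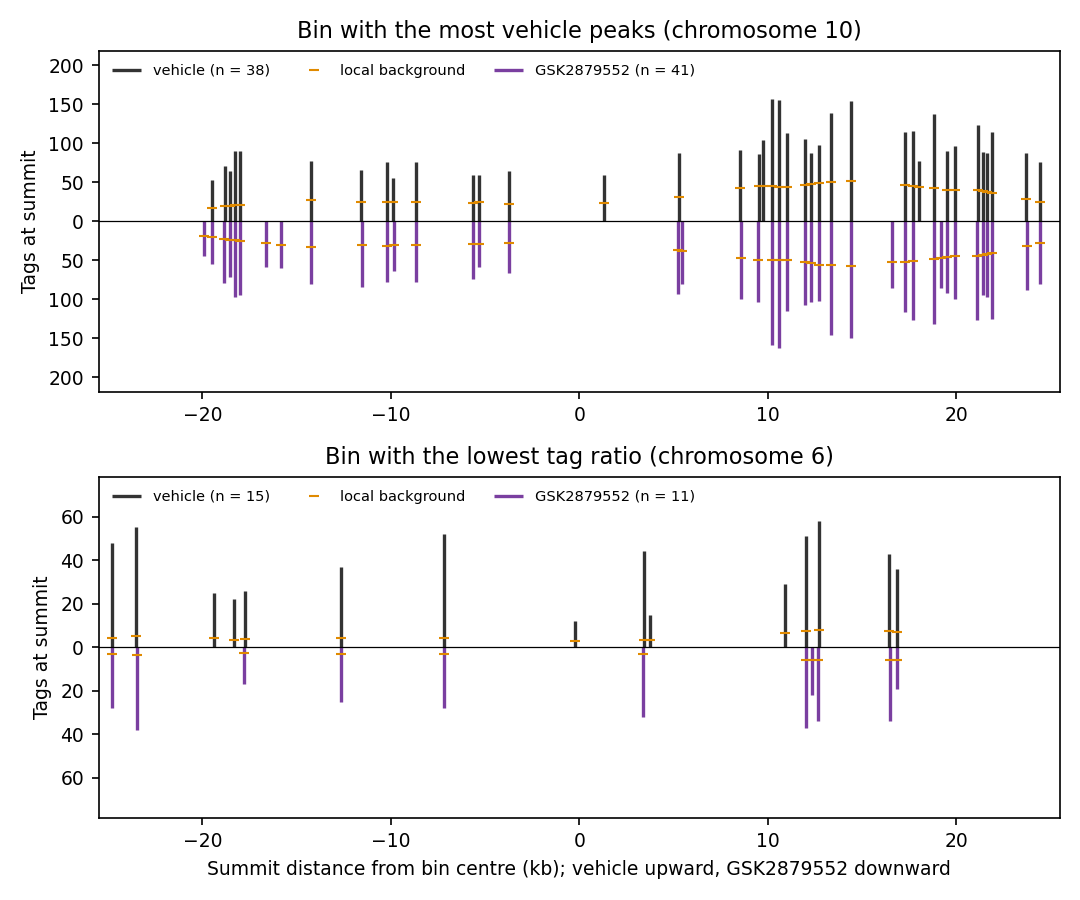
Tags at the summit of each peak (vertical axis) by its distance from the bin centre in kb (horizontal axis), with vehicle upward, GSK2879552 downward and the local background of each peak as a short orange line. Tags are not scaled for depth. In the chromosome 10 bin (above; 38 and 41 peaks) unscaled summits rise from a high background to like heights in both lists. In the chromosome 6 bin (below; 15 and 11 peaks) the background is low and the GSK2879552 summits are shorter.

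Members were weaker relative to their surroundings than other open regions, although they had more tags. Vehicle members had a median of 34 tags (interquartile range 22 to 54), against 22 at the 176703 other vehicle peaks under 1000 bp. Their median background was 6.72 tags against 2.59, and their median fold over background 4.10 against 5.44. The background was at the genome-wide level, the lowest the caller uses, at 4.77% of members and 41.2% of other peaks. This follows in part from the choice, since tags of neighbouring peaks raise the local background. Member widths were close to those of other peaks, with a median of 195 bp against 186 bp. Neighbouring summits within a dense bin were 1770 bp apart in the median, and 37.6% of these distances were under 1 kb. GSK2879552 members were alike, with a median width of 191 bp, 34 tags, a background of 7.16, a fold of 3.95 and a spacing of 2095 bp.

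Within the dense bins, members near a peak-free stretch differed from the rest in form. The 708 near vehicle members had a median width of 158 bp, 40 tags, a background of 9.63, a fold of 3.38 and a spacing of 1216 bp. The 4706 farther ones had 200 bp, 34 tags, a background of 6.58, a fold of 4.23 and a spacing of 1871 bp. Near members were thus narrower, closer together and on a higher background. Near bins also held more vehicle peaks (median 14 against 13), on which spacing and background depend in part. At 12 to 14 vehicle peaks, the median bin background was 5.4 near and 6.1 farther, and at 15 to 19 it was 9.7 and 9.8. At 20 or more it was 16.6 near and 11.3 in the 3 farther bins. Width and spacing were not compared within these classes. Regions of at least 500 bp made up 3.96% of near and 10.3% of farther members.

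Most members of either list met a peak of the other list. An overlap of at least 1 bp was found for 3846 of the 5414 vehicle members (71.0%, 69.8 to 72.2), against 60.9% of all autosomal vehicle peaks under 1000 bp. Of the 4546 GSK2879552 members, 4071 overlapped a vehicle peak (89.6%, 88.6 to 90.4), against 76.2% of all GSK2879552 peaks. The second share is raised by the choice of bins rich in vehicle peaks. With bins picked by the GSK2879552 list instead, the shares were 81.6% and 80.3%. All 93 wide vehicle peaks in the dense bins overlapped a GSK2879552 peak, and 43 of them overlapped 2 or more. Members with a partner had a median of 43 vehicle tags and those without one had 22.

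Near the peak-free stretches the sharing was alike from both sides, at 80.4% (77.3 to 83.2) of vehicle members and 80.0% (76.9 to 82.9) of GSK2879552 members. Farther away it was 69.6% (68.3 to 71.0) of vehicle members and 91.3% (90.4 to 92.2) of GSK2879552 members. Of the farther members, 1429 vehicle members had no GSK2879552 partner and 332 GSK2879552 members had no vehicle partner. Picking bins for many vehicle peaks favours such a surplus of unpaired vehicle members, so it is not a finding. With bins picked by the GSK2879552 list, near and farther ones together, the shares with a partner were 81.6% and 80.3%.

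In the vehicle list, whether members were shared more often than other peaks depended on the measure of strength held equal. Within deciles of −log10 p in the vehicle list, weighted alike, 70.5% of members and 60.6% of other peaks were shared, and members were higher in 9 of the 10 deciles. Within deciles of fold the shares were 81.4% and 60.2%, with members higher in all 10. Within deciles of tags the order turned, at 56.7% of members and 61.2% of others, with members lower in 6 of the 10. In the GSK2879552 list, where the choice of bins raises sharing, the shares by tags were 78.5% of members and 76.2% of others. Members were lower in 6 of the 10 deciles there too. By −log10 p the shares in that list were 85.0% and 76.0%, and by fold 92.2% and 75.6%. By the way p is computed, a peak on a higher background needs more tags for the same −log10 p.

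**Figure D3:**
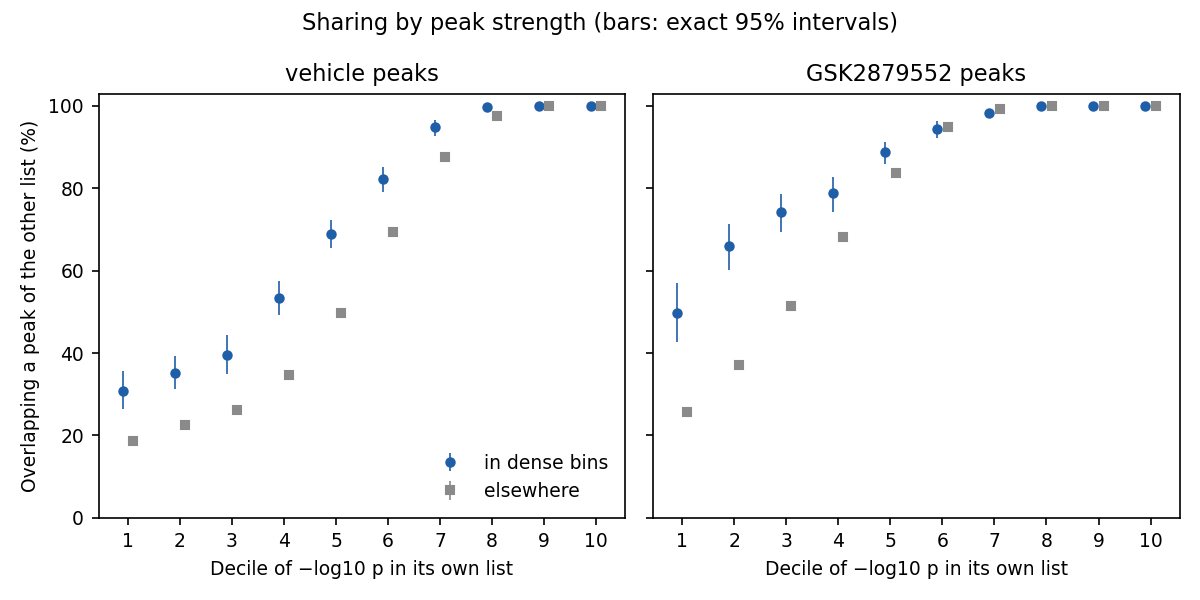
Share of peaks that overlap a peak of the other list (vertical axis, percent) by decile of −log10 p within the own list (horizontal axis), for peaks in dense bins (circles) and elsewhere (squares), with exact 95% intervals. In the vehicle list (left; under 1000 bp) members lie above other peaks in 9 of the 10 deciles, and in the GSK2879552 list (right) in 6.

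Tags at paired peaks give a measure that does not count peaks, but the pairs still lie in bins picked on the vehicle list. Vehicle members without a partner, which had fewer tags, are left out, and their share was lower near the peak-free stretches than farther away. A pair was a vehicle member that overlapped exactly 1 GSK2879552 peak which overlapped no other vehicle peak. GSK2879552 tags were divided by 1.18, the ratio of the genome-wide backgrounds of the lists (2.72 and 2.31 tags), to allow for depth. At the 3543 paired members the median was 42 tags with vehicle and 35 with GSK2879552 before scaling. The median log2 ratio after scaling was -0.47 (quartiles -0.66 and -0.23), and the ratio of summed tags was 0.742 (0.737 to 0.748). For the 101277 pairs outside dense bins these were -0.56 and 0.678 (0.677 to 0.679). In bins picked by the GSK2879552 list, the median log2 ratio was -0.39 and the ratio of summed tags 0.782 (0.775 to 0.789). Scaled tags were lower by 1.5-fold or more at 32.9% of paired members, against 46% of all pairs, and above vehicle at 10.1%, against 5.83%.

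Among paired members the tag ratio was higher near the peak-free stretches than elsewhere. Near them, 542 pairs had a median of 49 vehicle and 52 GSK2879552 tags before scaling, a scaled ratio of summed tags of 0.923 (0.908 to 0.938) and a median log2 ratio of -0.10. Farther away, 3001 pairs had 42 and 34 tags, a ratio of 0.705 (0.70 to 0.711) and a median log2 ratio of -0.52. Without scaling the ratios were 1.08 near and 0.829 farther. Scaled tags were above vehicle at 31.2% of near and 6.23% of farther pairs. The background beneath the summits moved alike: where both lists had a background above the genome-wide level, its median scaled ratio was 1.0 near and 0.802 farther. Pairs outside dense bins had a ratio of 0.767 (0.758 to 0.777) near a stretch and 0.677 (0.675 to 0.678) farther away, so farther members stood slightly above farther peaks of other bins.

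By distance from a stretch, the tag ratio of dense bins was 0.917 (0.900 to 0.934) in the 32 dense bins up to 0.5 Mb from a stretch and 0.944 (0.912 to 0.977) in the 11 bins from 0.5 to 1 Mb. It was 0.820 (0.784 to 0.858) in 13 bins from 1 to 2 Mb and 0.782 (0.752 to 0.813) in 18 bins from 2 to 5 Mb. These classes mixed high and low bins: among those with at least 8 pairs, 7 bins at 1 to 2 Mb ran from 0.684 to 1.01 with a median of 0.969, and 14 bins at 2 to 5 Mb from 0.646 to 1.02 with a median of 0.730. From 5 to 20 Mb it was 0.689 (0.678 to 0.70) in 75 bins, and beyond 20 Mb it was 0.702 (0.696 to 0.709) in 254. Over the 235 farther bins with at least 8 pairs, Spearman's rho of the ratio with distance was -0.005, as a description of bins that share 2 libraries. Width and spacing of members also differed between these places, and their part in this pattern was not tested.

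**Figure D4:**
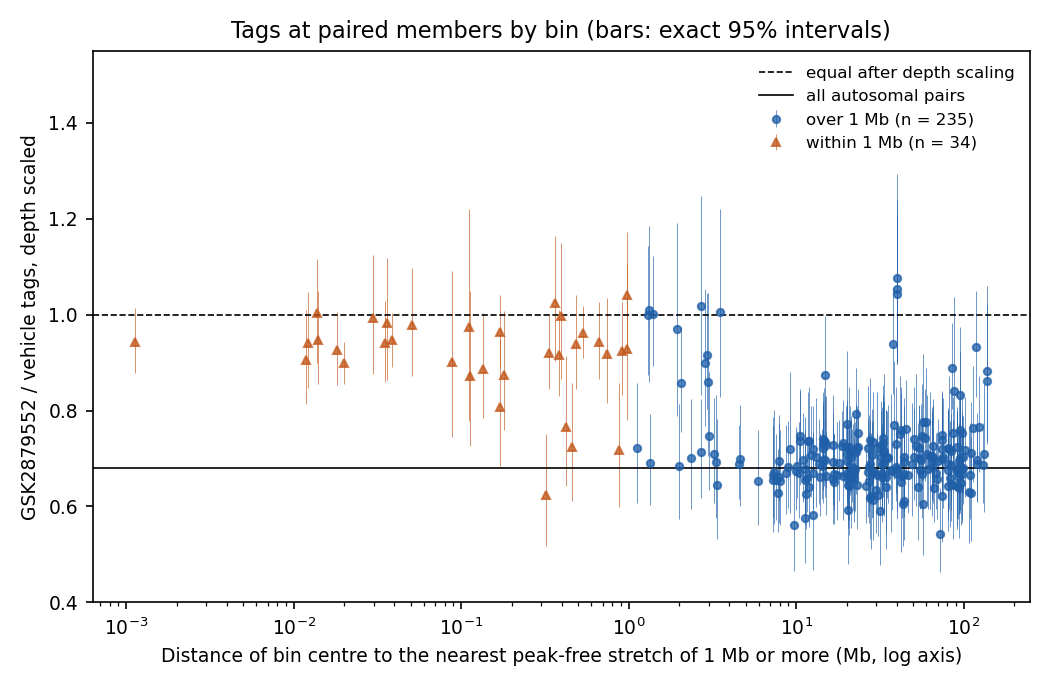
Ratio of GSK2879552 to vehicle tags summed over paired members (vertical axis, scaled for depth) by the distance of the bin centre from the nearest stretch of at least 1 Mb without peaks (horizontal axis, Mb, log axis), for the 269 dense bins with at least 8 pairs, with exact 95% intervals. The 34 bins within 1 Mb (triangles) have quartiles of 0.899 and 0.963, and the 235 farther bins (circles) have quartiles of 0.665 and 0.726, around the ratio of all pairs, 0.681 (solid line).

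Single bins mostly followed the same split. Among the 269 dense bins with at least 8 pairs, the ratio ran from 0.544 to 1.08 with a median of 0.702. Its interval lay above the ratio of all pairs (0.681) in 53 bins (19.7%), against 14.9% of all 549 bins with at least 8 pairs, and below it in 2, against 0.546%. It lay entirely below 1 in 224 (83.3%), against 88%. Of the 34 near bins, 30 lay above the ratio of all pairs, and of the 235 farther bins, 23 (9.79%). Outside the dense bins this was so in 17 of 19 near bins and in 12 of 261 farther bins. The near dense bins where it was not so all lay beside a stretch from position 1. They were chr22:16350001-16400000 at 0.623, chr15:20850001-20900000 at 0.717, chr21:9850001-9900000 at 0.725 and chr14:19400001-19450000 at 0.766. Also beside such a stretch, chr22:16200001-16250000 at 0.806 and chr22:17000001-17050000 at 0.929 had intervals above the ratio of all pairs. Near bins were otherwise not divided by kind of stretch.

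The places were also compared within classes of background. At a vehicle background of 15 tags or more, 236 near pairs had a scaled ratio of 0.935 (0.916 to 0.954), 351 farther pairs in dense bins 0.728 (0.714 to 0.741) and 686 farther pairs of other bins 0.725 (0.716 to 0.734). At a background of 5 to under 10 tags the ratios were 0.925 (0.884 to 0.969), 0.698 (0.689 to 0.707) and 0.695 (0.693 to 0.697) in the same order. In both classes the intervals of farther members and of farther peaks in other bins overlapped. Under 3 tags, where they did not, the ratios were 0.913 (0.827 to 1.01), 0.716 (0.691 to 0.743) and 0.665 (0.663 to 0.667). Within classes of tags over both lists, farther members stood above farther peaks of other bins, with separate intervals, except at 150 to under 500 tags. In that class the ratios were 0.739 (0.724 to 0.754) and 0.730 (0.726 to 0.733). At 40 to under 60 tags they were 0.682 (0.6675 to 0.697) and 0.640 (0.637 to 0.642).

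**Figure D5:**
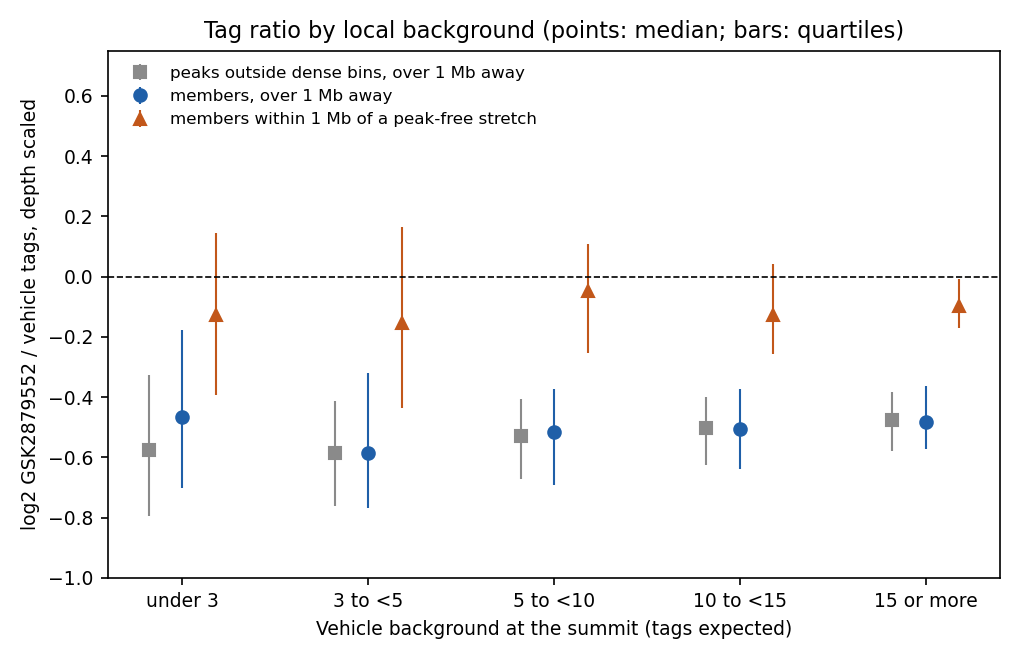
Median log2 ratio of GSK2879552 to vehicle tags, scaled for depth (vertical axis), with quartiles as bars, by class of vehicle background in tags (horizontal axis). Members near a peak-free stretch (triangles) have medians from -0.16 to -0.05 in the 5 classes, and both members farther away (circles) and peaks outside dense bins farther away (squares) have medians from -0.58 to -0.46.

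The lowest tag ratios came from dense bins over 1 Mb from any stretch, as did 235 of the 269 ratios with at least 8 pairs. In chr6:134300001-134350000, with 15 vehicle and 11 GSK2879552 peaks, 9 pairs had 399 vehicle and 255 GSK2879552 tags in all, a scaled ratio of 0.544 (0.463 to 0.638). Its vehicle summits had 12 to 58 tags on backgrounds of 2.96 to 7.72, and its GSK2879552 summits 17 to 38 tags. Every one of its 11 GSK2879552 peaks overlapped a vehicle peak, and 5 vehicle peaks had no partner. The next were chr5:59050001-59100000 (14 and 9 peaks) at 0.562 (0.465 to 0.678) and chr14:30250001-30300000 (12 and 10 peaks) at 0.576 (0.481 to 0.689). Then came chr10:55000001-55050000 (13 and 9 peaks) at 0.582 (0.467 to 0.723) and chr7:26400001-26450000 (12 and 9 peaks) at 0.591 (0.479 to 0.728). All 5 bins lay at least 9.67 Mb from a stretch, and the ranking picked them for their low values.

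Among bins with at least 8 pairs, the highest ratios outside chromosome 8 were in chr9:66450001-66500000 at 1.04 (0.925 to 1.17) and chr21:10800001-10850000 at 1.02 (0.902 to 1.16), both near a stretch. They were followed by chr11:48850001-48900000 at 1.02 (0.833 to 1.25), chr9:66800001-66850000 at 1.01 (0.861 to 1.18) and chr9:69000001-69050000 at 1.01 (0.828 to 1.22). These 3 lay 2.72, 1.32 and 3.52 Mb from a stretch. Of the 235 farther bins with that many pairs, 7 had a ratio above 1, on chromosomes 8, 9, 11 and 16. Those of chromosome 8 were 3 adjacent bins, singled out after their values were seen, 39.9 Mb from a stretch. From 86700001 to 86850000 they held 12, 21 and 19 vehicle peaks and 11, 19 and 20 GSK2879552 peaks, with a joint scaled ratio of 1.06 (0.961 to 1.16).

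The largest differences in number towards fewer GSK2879552 peaks were in bins over 1 Mb from a stretch, as were 360 of all 403 dense bins. In chr1:233600001-233650000, 12 vehicle peaks stood against 2 GSK2879552 peaks. Its median vehicle background was 2.31 tags, the genome-wide level, and the 2 pairs had 47 and 33 tags. In chr1:152450001-152500000 the number went from 13 to 4, in chr17:62150001-62200000 from 13 to 5, in chr4:1150001-1200000 from 17 to 9 and in chr1:154950001-155000000 from 14 to 7. These bins had 2 to 6 pairs, whose scaled ratios ran from 0.597 to 0.741. With so few pairs these ratios have no interval.

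More GSK2879552 than vehicle peaks were listed in 55 dense bins. The largest surplus was 4 peaks. It was seen in chr8:46850001-46900000 (13 to 17), which the naming rule passed over, and in chr4:49150001-49200000 (13 to 17), chr2:133000001-133050000 (15 to 19), chr16:33950001-34000000 (12 to 16) and chr16:32250001-32300000 (14 to 18), followed by 3 in chr10:42350001-42400000 and others. The tag ratios of the chr4, chr2 and chr16:33950001-34000000 bins were 0.938, 0.938 and 1.0. In chr16:32250001-32300000 it was 0.748 (0.635 to 0.880), so more peaks were listed there while the tags at 12 pairs were lower.

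Most dense bins had no dense bin directly beside them. They formed 359 separate stretches, of which 320 were single bins, 34 were pairs of adjacent bins and 5 were runs of 3 adjacent bins. In all, 83 bins (20.6%) had a dense neighbour, while dense bins made up 0.835% of all bins with a vehicle peak. The places beside a dense bin held a median of 6 vehicle and 5 GSK2879552 peaks, against 3 and 3 beside the other bins. Of the runs of 3, that of chromosome 8 is given above. In the run chr1:10700001-10850000 the vehicle numbers were 14, 12 and 13 and the GSK2879552 numbers 7, 11 and 14, with a scaled tag ratio of 0.730 (0.668 to 0.798). The run chr7:89750001-89900000 went from 13, 12 and 14 to 10, 9 and 11, with a ratio of 0.648 (0.592 to 0.709). The run chr9:68350001-68500000, 2.87 Mb from a stretch, went from 16, 20 and 13 to 14, 22 and 16, with a ratio of 0.898 (0.822 to 0.982). GSK2879552 numbers were lower in every bin of the chromosome 7 run and in 1 of the 3 bins of the chromosome 9 run.

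Dense bins were unevenly spread over the chromosomes. They made up 2.64% of the occupied bins of chromosome 22, 2.21% of chromosome 17 and 2.13% of chromosome 19, and 0.258% of chromosome 13, 0.312% of chromosome 3 and 0.347% of chromosome 2. Chromosome 1 had the most, 44. Within 5 Mb of the outermost peaks of their chromosome lay 102 dense bins (25.3%), against 8.41% of the other bins. Those among them that were not near a stretch numbered 88. Their ratio of peak numbers was 0.834 (0.765 to 0.908) and their scaled tag ratio 0.716 (0.705 to 0.727). The 272 remaining farther bins had 0.788 (0.750 to 0.827) and 0.701 (0.695 to 0.708). Outer bins thus did not share the pattern seen beside the peak-free stretches. Tag ratios over the dense bins of a chromosome ran from 0.656 on chromosome 6 to 0.851 on chromosome 4. Without the bins near a stretch the value for chromosome 4 was 0.712, and chromosome 16 was then the highest at 0.761.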

How the data were processed

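LNCaP ATAC-seq samples were 4 lanes, 2 per condition, with 1 peak list per condition that the labels of both lanes name. Per the submitters' processing notes, the tools were BWA 0.7.2, SAMtools 0.1.18 and the peak caller MACS2 2.1.2, on hg19 (GRCh37). Not given in the sources used here were each tool's role, read filters, duplicate removal and any read shift. The authors deposited, for each peak, a score, a fold enrichment (a ratio over background), a −log10 p and a −log10 q. In their deposited lists the score equals −log10 q times 10, rounded down, in all but 3 peaks. No read totals were used here, and depth was judged from the lowest background, 2.31 tags with vehicle and 2.72 with GSK2879552.

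Summit tags and background were recovered from the deposited fold, taken as tags over background with 1 added to each, and the −log10 p, taken as a Poisson tail. A whole number of tags matched within 0.001 for 100% of 194551 vehicle and 163735 GSK2879552 peaks, and the inversion was tested on simulated data. GSK2879552 tags were divided by the ratio of lowest backgrounds, 1.18. No summit exceeded 199 tags. Shares have Clopper-Pearson intervals, tags exact Poisson intervals and ratios exact binomial ones. Peaks of 1 bin share fragments and neighbourhoods and are not replicates.

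The bins named were the 10 with the most vehicle peaks, the 5 with the largest and the 5 with the smallest drop in number, the 5 lowest and 5 highest tag ratios among bins with at least 8 pairs, and the 3 longest runs. Ties went to more vehicle tags, and chromosome 8 was passed over. In each of the 10 bins the member with the most tags was named. Members, rules and lists were chosen with earlier results of these data known. A planned search for motifs was not run, since no hg19 sequence was used here. Alternatives varied the peak minimum, bin size, picking list, strength, list length, overlap, scaling and tag correction. Python 3.11.15, NumPy 2.4.6, pandas 2.3.3, SciPy 1.17.1 and matplotlib 3.10.9 were used.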

Additional observations from a re-analysis of the deposited data

Results flagged for a closer look

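Bins as dense as those described also occurred on sequences outside chromosomes 1 to 22, and 2 of these groups stood out because the GSK2879552 list held more of them than the vehicle list. On chromosome Y, 12 bins of 50 kb held 12 or more GSK2879552 peaks and 9 held 12 or more vehicle peaks, although the whole chromosome held 897 and 1178 peaks. On sequences other than the numbered chromosomes, X and Y, 39 bins passed that number in the GSK2879552 list and 36 in the vehicle list, with 2194 and 2641 peaks in all. On chromosome X the order was the other way, with 2 and 5 bins. These counts have no replicate and were not tested.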

How the results depend on the processing

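No paired analysis was possible because each condition has 1 list that pools both lanes, and for the same reason no replicate could be left out. Over 16 alternatives, 64 values were computed for 6 results, and 24 stayed within the counting interval of the reported value, 39 moved beyond it and 1 reversed. The cause of these shifts was not tested. The ratio of peak numbers (0.826) reversed to 1.10 with bins picked by GSK2879552 and was 0.985 with bins picked by both lists, 0.865 at a minimum of 15 vehicle peaks, 0.872 in 100 kb bins with at least 24 peaks and 0.924 with lists of equal length. The share of bins with fewer GSK2879552 peaks (79.7%) was 26.0% with bins picked by GSK2879552, 44.2% with both lists, 72.9% in 100 kb bins, 84.2% at a −log10 q of at least 5, 66.7% with lists of equal length and 83.6% without bins near a peak-free stretch, an alternative added after seeing the data. The share of bins that kept 12 GSK2879552 peaks (36.5%) was 44.3% at a minimum of 15 in both lists, 51.8% with lists of equal length and 31.7% without the near bins. It was not run for bins picked by GSK2879552 or by both lists, where it is complete by construction. The share of vehicle members with a partner (71.0%) was 68.3% at a minimum of 10 peaks, 76.4% at 15, 73.9% in 100 kb bins, 81.6% with bins picked by GSK2879552, 81.0% by both lists, 74.8% at the stricter level, 79.1% with lists of equal length, 62.0% at a reciprocal overlap of 50% and 69.6% without the near bins. The share of GSK2879552 members with a partner (89.6%) was, in 100 kb bins, 88.5%, and 80.3% with bins picked by GSK2879552, 86.2% by both lists, 94.9% at the stricter level, 75.4% at the reciprocal overlap, 85.6% with summits within 250 bp and 91.3% without the near bins. The median log2 tag ratio (-0.47) was -0.50 at a minimum of 10 peaks, -0.38 at 15, -0.43 in 100 kb bins, -0.39 with bins picked by GSK2879552, -0.37 by both lists, -0.45 at the stricter level, -0.24 unscaled, -0.51 after subtracting the background, -0.51 with tags corrected for 1 tag per position and strand and -0.52 without the near bins, so it was below 0 in every alternative.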
